A study of Mus musculus with 4 samples.

Results

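The 8 genes described here are Hmgcs1, Idi1, Fdps, Fdft1, Sqle, Lss, Srebf2 and Insig1, chosen by symbol for their place in the synthesis of cholesterol and its control, of 37411 genes in the count table. RNA of primary cultures of the osteocytic fraction of femoral bone was sequenced in 4 libraries, 2 from mice without PPARα (αKO) and 2 from wild-type (WT) mice. PPARα is a nuclear receptor activated by fatty acids, and the comparison asks how its absence alters the osteocyte transcriptome. Per the labels, all mice were C57BL/6 and 5 months old, and the cells of both genotypes grew ex vivo for 6 days without treatment. The methods of the study differ on several of these points. They give an age of 6 months and collection of the cultures on day 10, and they place the αKO mice, in which a Neo cassette took the place of a stretch of exon 8 of Ppara in every tissue, on a 129S4/SvJae background. The authors' own comparison names DMSO for both genotypes. The labels call the libraries biological replicates 1 and 2 of each genotype but do not say whether each came from 1 animal or from pooled animals.

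Cells make cholesterol from acetyl-CoA through the mevalonate pathway, whose middle part also supplies the isoprenoid groups that anchor small GTPases to membranes. The pathway is switched on by SREBP-2, the product of Srebf2, a membrane-bound transcription factor that is carried to the Golgi, cut and released when sterols in the endoplasmic reticulum run low. Insig1 encodes an anchor protein that holds SREBP-2 back when sterols are plentiful, and Insig1 is itself a target of SREBP-2. In bone the pathway is best known as the target of nitrogen-containing bisphosphonates, which block farnesyl diphosphate synthase (the product of Fdps) in osteoclasts.

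The libraries held between 25136628 and 27496137 counts. Ppara had 15 and 9 counts in the αKO and 16 and 13 counts in the WT libraries (replicates 1 and 2, in this order throughout), and counts over the whole gene do not test an allele that changes 1 exon. The markers did not describe a pure osteocyte culture, and αKO and WT osteocytes stand below for these mixed cultures. Sost and Fgf23, which mark mature osteocytes, had 0 counts in all 4 libraries and Mepe at most 4, while 15 of 15 macrophage markers were counted in every library. Levels in CPM (counts relative to library size, scaled by the TMM method) of the 15 macrophage markers summed to 30950 and 25770 in αKO and to 19960 and 11970 in WT cultures. Most of each sum came from Lyz2 alone, at 20020 and 14960 CPM in αKO and 14020 and 8516 CPM in WT cultures. The WT libraries also stood apart from each other by the GC content of the transcripts, which touches the genes described here as given below.

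Promoter sequences are shown for the genes that turn the pathway on (Srebf2), hold it back (Insig1) and encode an early enzyme of it (Hmgcs1). The reason is that SREBP-2 acts through a short element, TCACNCCAC, that lies beside CCAAT and GC boxes in promoters of this pathway. RefSeq windows on GRCm38.p6, from 250 bases before to 50 bases after a gene's start, were found for 5 of the 8 genes. The stretches printed lie on the plus strand, are written 5′ to 3′ and end before the first start annotated by RefSeq or GENCODE, and capitals mark matches to the 3 motifs on either strand. They span chr13:119690101-119690350 for Hmgcs1, chr15:82147019-82147180 for Srebf2 and chr5:28071162-28071362 for Insig1.
Hmgcs1: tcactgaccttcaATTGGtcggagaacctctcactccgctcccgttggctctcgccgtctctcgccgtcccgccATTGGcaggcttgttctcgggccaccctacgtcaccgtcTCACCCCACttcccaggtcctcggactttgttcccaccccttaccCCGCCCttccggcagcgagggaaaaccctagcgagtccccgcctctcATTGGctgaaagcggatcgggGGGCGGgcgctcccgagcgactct
Srebf2: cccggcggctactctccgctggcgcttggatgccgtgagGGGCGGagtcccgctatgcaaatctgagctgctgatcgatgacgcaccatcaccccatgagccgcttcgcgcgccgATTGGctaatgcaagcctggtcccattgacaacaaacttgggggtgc
Insig1: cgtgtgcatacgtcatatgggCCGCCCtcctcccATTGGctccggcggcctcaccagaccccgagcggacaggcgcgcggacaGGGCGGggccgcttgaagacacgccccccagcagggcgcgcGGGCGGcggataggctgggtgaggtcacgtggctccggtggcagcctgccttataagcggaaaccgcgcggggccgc
The window of Hmgcs1 held the sterol element once, from base -137 to base -129 before the start, between a CCAAT box read on the opposite strand at -176 to -172 and a GC box at -92 to -87. Of the 5 windows, 1 held this element, against 1.22% of all 27025 windows in the table. All 5 held CCAAT and all 5 held GGGCGG, against 37.9% and 35.9% of all windows, with either strand and the whole window searched. The shorter core CACCCCAC, which overlaps the longer element, was likewise found only in Hmgcs1 among the 5, against 2.77% of all windows. Only exact matches were searched, so a near match, such as tcaccccat in the stretch of Srebf2, was neither marked nor counted. A match of letters is a description and no evidence of binding, and its lack is no evidence against binding.

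None of the 8 genes passed an adjusted p of 0.05 between αKO and WT cultures in edgeR's quasi-likelihood test, and none of the 13571 genes tested did (0.0%). DESeq2 passed 50 genes and limma voom 0, and none of the 8 was among them. None of the 8 reached an unadjusted p of 0.05 either, against 5.39% of all genes tested. All 8 passed the filter on low counts. The log2 fold change, given here as αKO over WT, was above 0 for 8 of 8, against 49.2% of all genes tested, but it was 0.0074 for Fdft1 and 0.093 for Hmgcs1, and with library size alone as the scaling both lay below 0. The median over the 8 was 0.29, against -0.0083 over all genes tested. In Sqle, Fdps, Lss, Srebf2 and Insig1 both αKO libraries lay above both WT libraries, against 17.1% of all genes tested. In none of the 8 did both lie below, against 16.0% of all genes. With 2 libraries against 2, an exact permutation test cannot give a p under 0.33, and counts of this kind carry no test. They also depend on the unit. In the authors' TPM, a comparison added after the data were seen, the genotypes did not overlap in 2 genes, Fdps and Srebf2 (10.7% of all genes tested on the same side).

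**Figure D1:**
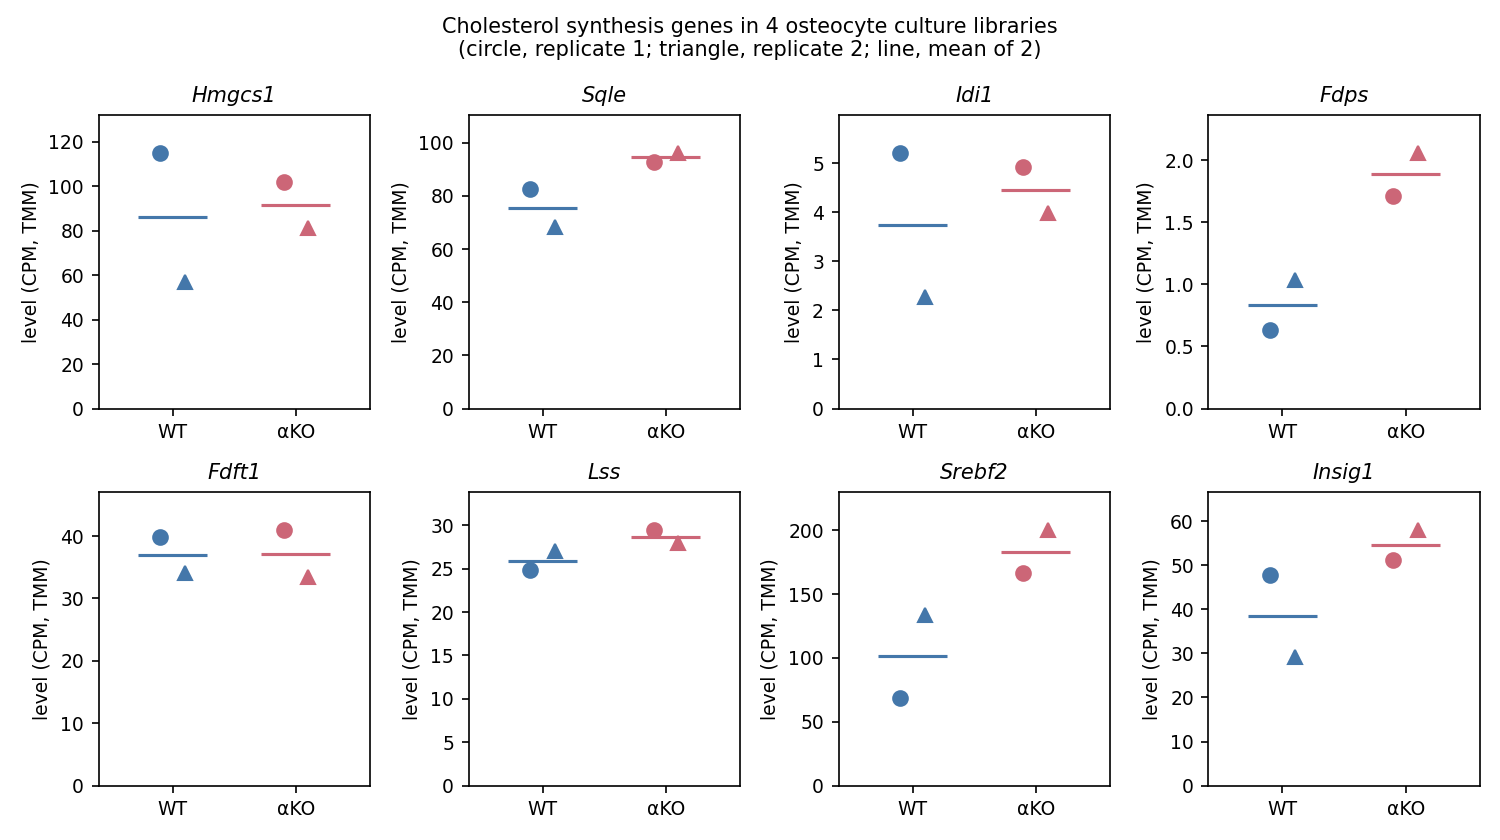
Level of each gene in CPM normalized by TMM, on axes that start at 0, in the 2 WT (blue) and 2 αKO (red) libraries, with circles for replicate 1, triangles for replicate 2 and a line at the mean of each genotype. Srebf2 lay at 68.8 and 134 CPM in WT and at 166 and 200.0 CPM in αKO cultures, while the WT levels of Hmgcs1, 115 and 57.0 CPM, lay on either side of both αKO levels.

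Hmgcs1 (ENSMUSG00000093930, chromosome 13 of GRCm38, 119690379 to 119708260) encodes the cytosolic synthase that makes HMG-CoA, the substrate from which mevalonate is made. It was at 102 and 81.2 CPM in αKO and at 115 and 57.0 CPM in WT osteocytes. WT replicate 1 was thus the highest library and WT replicate 2 the lowest, with both αKO libraries between them. The log2 fold change was 0.093 (SE 0.421, 95% interval -0.979 to 1.164, adjusted p = 1.00 in edgeR's test). Its sign turned with the library left out, from -0.36 without WT replicate 2 to 0.71 without WT replicate 1, so no direction can be given for Hmgcs1. Of the 50-base words of its exons, 11.6% also occur in other annotated genes, mainly Gm48342 on the opposite strand.

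Idi1 (ENSMUSG00000058258, chromosome 13, 8885501 to 8892451) encodes the isomerase of the isoprenoid building blocks. It was low, with 129 and 99 counts in αKO and 139 and 59 counts in WT cultures, or 4.92 and 3.99 against 5.21 and 2.27 CPM. The libraries stood in the same order as for Hmgcs1, WT replicate 2 lowest and WT replicate 1 highest. Its log2 fold change of 0.25 had an interval from -1.17 to 1.67, and it ran from -0.26 to 0.99 over the libraries left out. Of the 50-base words of its exons, 25.3% also occur in other annotated genes, among them Gm13502, so reads of Idi1 may have been lost or shared.

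Fdps (ENSMUSG00000059743, chromosome 3, 89093588 to 89101959, minus strand) had the fewest counts of the 8 genes, 45 and 51 in αKO against 17 and 27 in WT osteocytes. Both αKO libraries, at 1.71 and 2.06 CPM, lay above both WT libraries, at 0.637 and 1.04 CPM. The log2 fold change of 1.17 was the largest of the 8 (SE 0.551, 95% interval -0.24 to 2.57), with an adjusted p of 0.953 in edgeR's test. The summed counts, 96 against 44, gave a ratio of 2.12 per library size, with an exact 95% interval of 1.47 to 3.10 that covers counting error only and not the spread between cultures. This value is uncertain for a second reason. A gene model on the same strand, Gm43738, shares 1124 exon bases with Fdps and had 0 counts in all libraries, and 26.2% of the 50-base words of Fdps occur in other genes, so the counts may describe only part of its transcripts.

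Fdft1 (ENSMUSG00000021273, chromosome 14, 63145150 to 63179578, minus strand) encodes squalene synthase, which commits farnesyl units to sterols. Its levels were 40.9 and 33.4 CPM in αKO and 39.8 and 34.1 CPM in WT osteocytes. Replicate 1 was above replicate 2 in each genotype and the genotypes overlapped, with a log2 fold change of 0.0074 (SE 0.311, 95% interval -0.78 to 0.80). It was -0.0038 with RLE factors and -0.083 with library size alone, and its interval, wide in both directions, is no evidence of equal levels. Of the 50-base words of Fdft1, 26.5% also occur in other genes, among them Ctsb and Gm6781. On the opposite strand, Ctsb shares 774 exon bases with Fdft1 and had 157714 to 394644 counts per library. Whether reads were counted by strand is not given in the sources used here, and without strand the overlapping parts of both genes cannot be told apart.

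Sqle (ENSMUSG00000022351, chromosome 15, 59315077 to 59331192) encodes squalene epoxidase, a rate-limiting oxygenase of the sterol branch. It was at 92.8 and 96.1 CPM in αKO and at 82.8 and 68.2 CPM in WT cultures. The αKO pair lay close together and above both WT libraries by CPM, but by TPM, at 77.8 and 78.0 against 80.4 and 60.4, WT replicate 1 was the highest. The log2 fold change was 0.32 (SE 0.281, 95% interval -0.39 to 1.04, adjusted p = 1.00 in edgeR's test). Leaving out WT replicate 2 gave 0.15, and leaving out WT replicate 1 gave 0.49.

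Lss (ENSMUSG00000033105, chromosome 10, 76531588 to 76557138) encodes lanosterol synthase, which closes the sterol rings. It varied the least of the 8 genes, from 24.8 CPM in WT replicate 1 to 29.4 CPM in αKO replicate 1, with 28.0 CPM in αKO replicate 2 and 27.0 CPM in WT replicate 2. The genotypes did not overlap, but the log2 fold change of 0.15 (SE 0.306, 95% interval -0.63 to 0.92) was small against its error. On the TPM scale with a pseudocount of 0.1 the difference was -0.021.

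Srebf2 (ENSMUSG00000022463, chromosome 15, 82147181 to 82205379), the activator of the pathway, was at 166 and 200.0 CPM in αKO and at 68.8 and 134 CPM in WT osteocytes. Both αKO libraries lay above both WT libraries, and WT replicate 2 was 1.95 times WT replicate 1. The log2 fold change was 0.85 (SE 0.408, 95% interval -0.18 to 1.89, 1.81-fold), with an adjusted p of 0.953 in edgeR's test. Without WT replicate 2 it was 1.38 with an adjusted p of 0.0321, a setting in which 4.88% of all genes passed, and without WT replicate 1 it was 0.48. Srebf2 lies 3.53 Mb and Sqle 26.4 Mb from Ppara on chromosome 15. The methods name a 129S4/SvJae background for the αKO mice. They call the purchased WT mice adequate but name no background for them. An effect of linked strain alleles and an effect of the Ppara genotype thus cannot be told apart there.

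Insig1 (ENSMUSG00000045294, chromosome 5, 28071363 to 28078662), the sterol-dependent brake, was at 51.1 and 57.9 CPM in αKO and at 47.8 and 29.1 CPM in WT osteocytes. WT replicate 1 lay closer to both αKO libraries than to WT replicate 2. The log2 fold change was 0.50 (SE 0.364, 95% interval -0.42 to 1.43, adjusted p = 1.00 in edgeR's test), which became 0.93 when WT replicate 1 was left out and 0.15 when WT replicate 2 was left out. By TPM, WT replicate 1, at 47.5, lay between the αKO libraries, at 43.8 and 48.1.

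**Figure D2:**
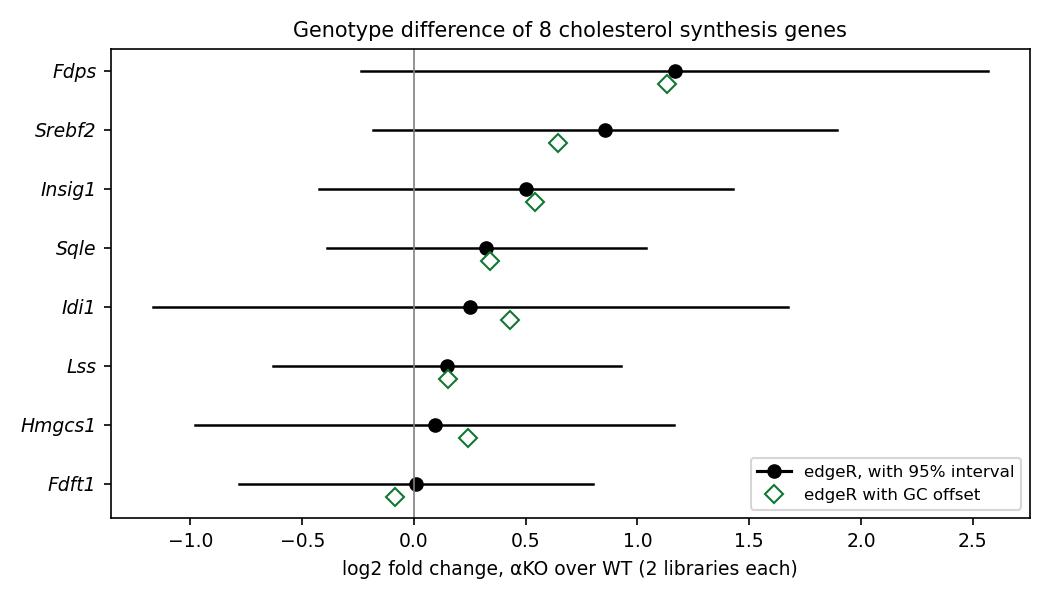
Log2 fold change of αKO over WT for each gene from edgeR (black points) with its 95% interval (lines), and the value after a GC-content offset (open green diamonds), for 2 libraries of each genotype. All 8 intervals include 0, from Fdps at 1.17 down to Fdft1 at 0.0074, and the GC offset placed Fdft1 at -0.084.

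The 8 genes did not share one pattern over the libraries. Hmgcs1 and Idi1 ran from WT replicate 2 over αKO replicates 2 and 1 to WT replicate 1, an order that 11.7% of all genes tested had. Sqle and Insig1 shared the order WT replicate 2, WT replicate 1, αKO replicate 1, αKO replicate 2 (4.14% of genes). Fdps and Srebf2 shared the order WT replicate 1, WT replicate 2, αKO replicate 1, αKO replicate 2 (5.87% of genes). WT replicate 2 was the lowest library for 4 of the 8 and WT replicate 1 for 3. The genes thus differed mainly in how the 2 WT libraries compared. The ratio of WT replicate 1 over WT replicate 2 ran from 2.29 for Idi1 and 2.01 for Hmgcs1 through 1.64 for Insig1 to 0.613 for Fdps and 0.514 for Srebf2. Between the αKO libraries it stayed between 0.832 for Srebf2 and 1.26 for Hmgcs1.

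In all of the 8 genes but Fdft1 and Lss, this split had the same sign as the median of genes of like GC content. Idi1 and Hmgcs1 had the lowest GC content of the 8 genes in their longest transcript, 41.9% and 43.1%, and Srebf2 the highest, 57.9%, at the 90.4th percentile of the genes tested. The 13167 genes tested with a known GC content were split into 10 bins of equal size. The median log2 difference of the WT libraries (replicate 1 minus replicate 2) went from 0.90 in the lowest to -1.64 in the highest bin. In the bin of Hmgcs1 and Idi1 it was 0.64, against 1.01 and 1.17 for the genes themselves. In the bin of Srebf2 it was -1.64, against -0.96 for Srebf2. Srebf2 lay at the lower edge of this bin, which starts at 57.79% GC, and the next lower bin had a median of -0.996, close to Srebf2. Insig1, at 48.2% GC, had a log2 ratio of 0.72 where its bin had 0.13, so its gap between the WT libraries was wider than the median gap at its GC content. Fdps, at 50.6% GC, had -0.65 where its bin had -0.075. Fdft1, at 51.8% GC, had 0.22 where its bin had -0.33, the opposite sign. In the bin of Lss and Sqle the median was 0.13, against -0.12 for Lss, also the opposite sign, and 0.28 for Sqle.

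**Figure D3:**
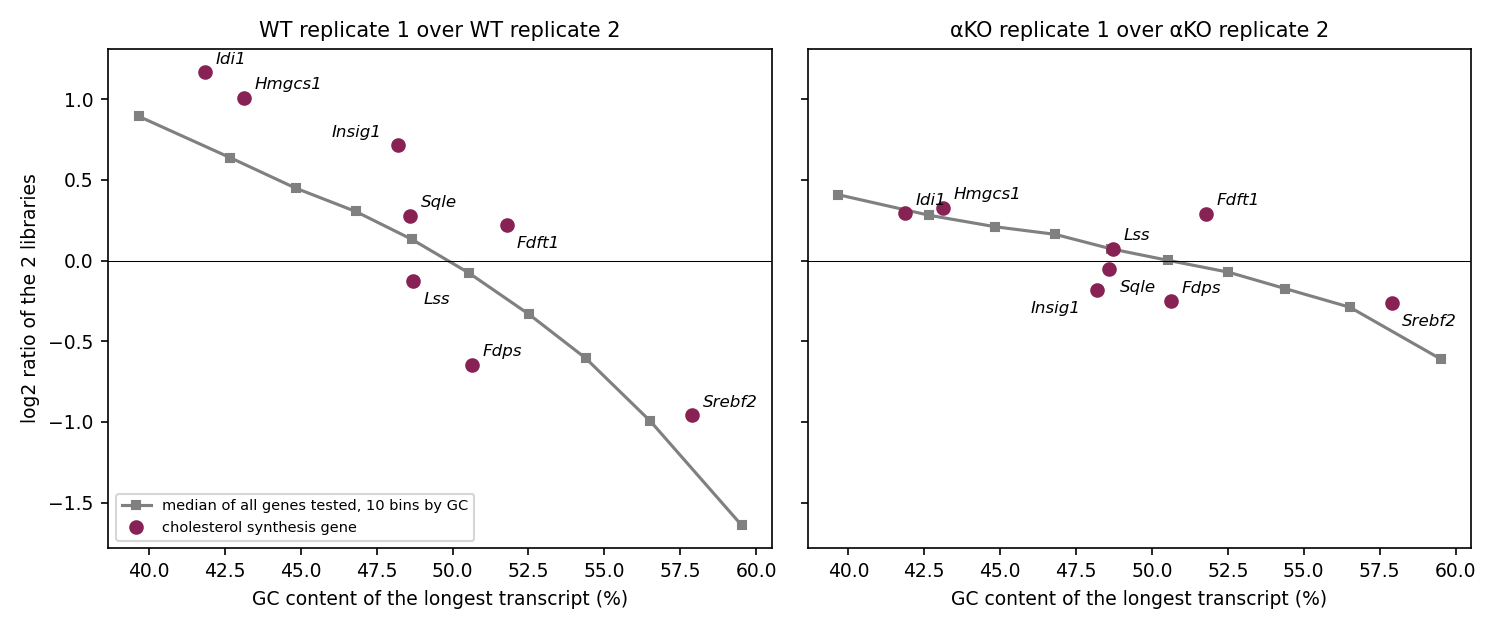
Log2 ratio of replicate 1 over replicate 2 within WT (left) and αKO (right) against the GC content of the longest transcript in percent, for the 8 genes (purple points) and as the median of all genes tested in 10 bins (grey line). The WT line falls from 0.90 to -1.64 and the αKO line from 0.41 to -0.61, with Idi1 and Hmgcs1 at the low-GC end and Srebf2 at the high-GC end.

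When the GC trend of each library was entered as an offset in the fit, the log2 fold change of Srebf2 was 0.65 (SE 0.217, adjusted p = 0.439 in edgeR's test) and that of Insig1 0.54 (SE 0.256, adjusted p = 0.510). Those of Idi1 and Hmgcs1 were 0.43 and 0.24, Sqle was at 0.34, Lss at 0.15, Fdps at 1.13 and Fdft1 at -0.084. The order of the WT libraries turned for Srebf2, with a log2 difference between replicates 1 and 2 of 0.33 in place of -0.96. With the offset, both αKO libraries lay above both WT libraries in 7 of the 8 genes, all but Fdft1, against 22.1% of all genes tested. None of the 8 passed an adjusted p of 0.05 with the offset in edgeR's test, as none of the 13571 genes did. Srebf2 was the single gene of the 8 under an unadjusted p of 0.05 with the offset, against 10.7% of all genes tested in that fit.

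The authors' TPM values relate the genes per transcript length. In αKO osteocytes the mean levels were 83.4 ± 8.96 TPM for Srebf2, 77.9 ± 0.153 for Sqle, 64.6 ± 11.8 for Hmgcs1 and 45.9 ± 3.04 for Insig1 (SD, n = 2). Fdft1 followed at 29.6 ± 4.90 TPM, Lss at 14.0 ± 0.818, Idi1 at 3.35 ± 0.565 and Fdps at 2.95 ± 0.313. The libraries of Srebf2 and Sqle overlapped, as did those of Idi1 and Fdps, and the other neighbours in this order did not. In WT osteocytes Sqle was at 70.4 ± 14.2 TPM, Hmgcs1 at 69.1 ± 36.9, Srebf2 at 51.2 ± 20.2, Insig1 at 36.9 ± 15.0 and Fdft1 at 33.2 ± 5.77, and each of these overlapped with the next. Lss, at 14.2 ± 0.0742 TPM, Idi1, at 3.22 ± 1.96, and Fdps, at 1.46 ± 0.404, lay below them without overlap. Hmgcs1 led in WT replicate 1, at 95.2 TPM, where Srebf2 was at 37.0, whereas Srebf2 led in WT replicate 2, at 65.5 TPM. The TPM of the 8 genes summed to 326 and 318 in αKO and to 317 and 242 in WT cultures, so WT replicate 1 was close to the αKO libraries and WT replicate 2 was below them.

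Of 15 other synthesis enzymes of the pathway, 11 had a log2 fold change above 0, with a median of 0.34, but none passed an unadjusted p of 0.05, and without WT replicate 2 the median was -0.022. In 5 of the 15 both αKO libraries lay above both WT libraries and in 1 below, against 17.1% and 16.0% of all genes tested. The highest was Tm7sf2, a sterol reductase of the late pathway, with 187 and 217 counts in αKO against 64 and 147 in WT cultures (log2 fold change 0.98, SE 0.551, adjusted p = 0.990 in edgeR's test). Leaving out WT replicate 1 gave 0.51 for Tm7sf2, and leaving out WT replicate 2 gave 1.69. The lowest was Hsd17b7, a sterol ketoreductase of the late pathway, at 37.7 and 30.5 CPM against 44.1 and 39.6 CPM (log2 fold change -0.30, from -0.46 without αKO replicate 1 to -0.14 without αKO replicate 2).

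Of 12 regulators that process, escort or degrade SREBP and its targets, 7 lay above 0, with a median of 0.042 that was -0.048 with library size alone. Both αKO libraries lay above both WT libraries in 1 of the 12 and below in none, against 17.1% and 16.0% of all genes tested. Srebf1, the paralogue of Srebf2 that drives fatty acid synthesis, was highest at a log2 fold change of 0.38 (SE 0.686), from 72.9 and 112 CPM in αKO and 28.3 and 114 CPM in WT cultures. Its WT libraries thus lay on either side of both αKO libraries, and its value ran from -0.27 without WT replicate 1 to 1.68 without WT replicate 2. Rnf139, an ubiquitin ligase of the endoplasmic reticulum, was lowest at -0.25, but at 0.78 when WT replicate 1 was left out.

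Of 14 genes of sterol uptake and handling, 11 had a log2 fold change above 0, with a median of 0.36. Both αKO libraries lay above both WT libraries in 6 and below in 1, against 17.1% and 16.0% of all genes tested. Mylip, which encodes a ligase that sends lipoprotein receptors to the lysosome, was highest. It was at 41.8 and 44.1 CPM in αKO against 33.1 and 16.0 CPM in WT cultures (log2 fold change 0.81, SE 0.439, adjusted p = 0.979 in edgeR's test). Without WT replicate 2 the value for Mylip was 0.34, and without WT replicate 1 it was 1.45. The lowest value of the list, -1.25, came from a gene with 9 to 24 counts per library. None of the 14 passed an unadjusted p of 0.05 in edgeR's test.

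Of 9 genes of the isoprenoid branches that leave the pathway before squalene, 3 lay above 0 and 6 below it, with a median of -0.076. Coq2, of ubiquinone synthesis, was highest at 0.29 (0.099 without WT replicate 1, 0.51 without WT replicate 2) and Pdss2, a subunit of the enzyme that makes the ubiquinone side chain, lowest at -0.29. Both αKO libraries lay above both WT libraries in 2 of the 9 and below in 1, close to the 17.1% and 16.0% of all genes tested. None of these lists was tested as a set, and all were chosen with earlier results of these data known.

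**Figure D4:**
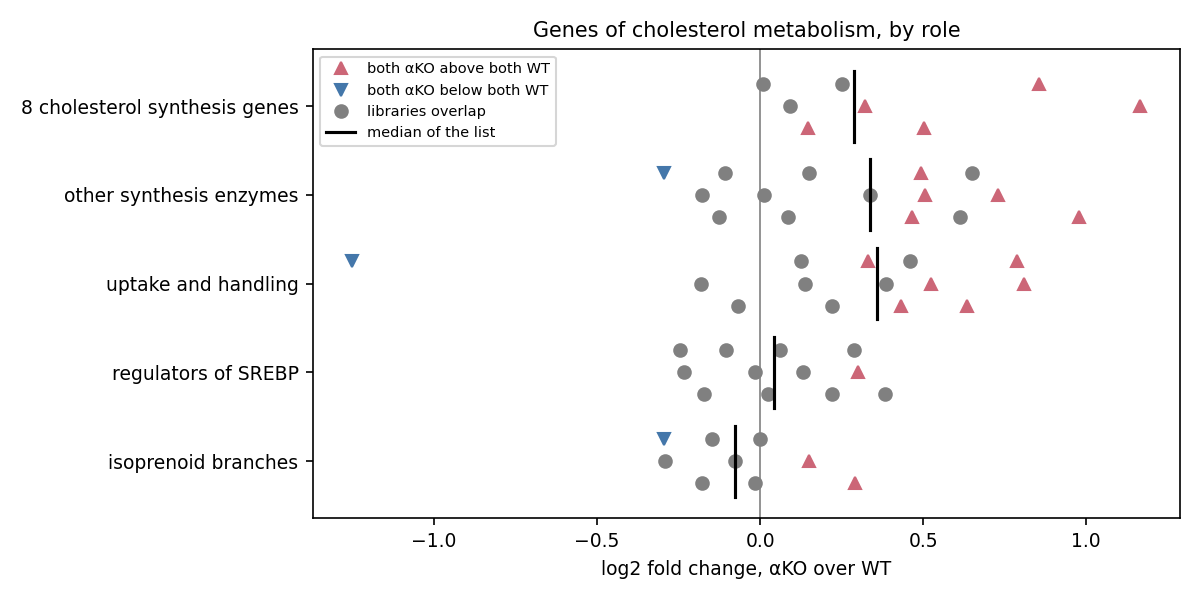
Log2 fold change of αKO over WT for each gene of the 8 and of 4 further lists of cholesterol metabolism, with red upward triangles where both αKO libraries lay above both WT libraries, blue downward triangles where both lay below, grey circles where the libraries overlapped and a black line at the median. The medians were 0.29, 0.34, 0.36, 0.042 and -0.076 from top to bottom.

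Markers of some cell types moved with genotype beside these values. Of the 15 macrophage markers, 15 had a log2 fold change above 0, with a median of 0.93, and in 14 both αKO libraries lay above both WT libraries, against 17.1% of all genes tested. An unadjusted p under 0.05 was reached by 7 of them, against 2.81% of all genes tested on the αKO-higher side, namely C1qa, C1qb, C1qc, Tyrobp, Csf1r, Cd68 and Laptm5, each at an adjusted p of 0.902 in edgeR's test. Of 8 osteoblast markers, 7 lay below 0. Bglap, Sp7 and Runx2 reached an unadjusted p under 0.05, against 2.59% of all genes on the αKO-lower side. Bglap had 5 to 105 counts per library. Alpl and Ibsp, whose libraries overlapped, lay at -0.85 and -2.29. Col1a1, Col1a2 and Spp1 lay at 0.0024, -0.050 and -0.047. The osteoblast markers summed to 23620 and 21010 CPM in αKO and to 23140 and 24180 CPM in WT cultures. Nearly all of this came from Spp1, Col1a1 and Col1a2, with Spp1 alone at 15090 and 10710 CPM in αKO and 13760 and 12890 CPM in WT cultures. These sums therefore do not show the lower levels of Bglap, Sp7 and Runx2. Of the 3 osteocyte markers with enough counts, Dmp1 and Pdpn were under an unadjusted p of 0.05 as well. Phex was at -1.08, but had only 4 to 32 counts per library, and its libraries overlapped. The osteocyte markers summed to 77.4 and 36.7 CPM in αKO and to 209 and 219 CPM in WT cultures. Most of these sums came from Pdpn alone, at 76.3 and 31.7 CPM in αKO and 196 and 201 CPM in WT cultures. In bulk RNA, fewer cells of a type and less RNA per cell cannot be told apart. Dividing-cell markers lay above 0 in 6 of 6 cases, with Aurkb under an unadjusted p of 0.05, and summed to 1044 and 620 CPM in αKO and to 754 and 473 CPM in WT cultures. Of 5 osteoclast markers, 4 lay above 0, with Ocstamp (21 to 65 counts per library) under an unadjusted p of 0.05. Ctsk went the other way, at -1.06, with 252.2 and 175.5 CPM in αKO against 582 and 307.2 CPM in WT cultures. The osteoclast markers summed to 386 and 261 CPM in αKO and to 626 and 431 CPM in WT cultures. Ctsk made up most of each sum, so the sums followed it and not the 4 markers above 0. Adipocyte markers summed to 7.13 to 21.6 CPM and endothelial markers to 6.94 to 13.5 CPM per library, and of the lymphocyte markers Cd3e and Ms4a1 had 0 counts in all libraries and Cd79a 2 counts in 1. The part of macrophages and dividing cells in the levels of the 8 genes was not tested. WT replicate 2, the lowest library for Hmgcs1, Idi1, Sqle and Insig1, was also the lowest in summed macrophage and dividing-cell markers. It was the lowest for each of these markers but Cd14, Tyrobp and Plk1, which were lowest in WT replicate 1. Fdps, Lss and Srebf2 were instead lowest in WT replicate 1, and Fdft1 in αKO replicate 2.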

How the data were processed

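Per the processing notes of the submitters, the authors used Trimmomatic 0.35, HTSeq 0.9.1, R 3.4.0 and DESeq2 1.16.1 with the mm10 build. The aligner, annotation and strand setting are not given in the sources used here. The authors deposited raw counts and TPM for 4 libraries. Their normalized counts, and their table of fold changes and p-values, were not used.

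Raw counts were filtered (edgeR filterByExpr, minimum count 10), scaled by TMM and tested, 2 αKO against 2 WT, with edgeR 4.0.16 (quasi-likelihood F test, two-sided, Benjamini-Hochberg over 13571 genes) in R 4.3.3. Levels are CPM, and log2 CPM used a prior count of 2. TPM carried no test. Alternatives were RLE factors, library size alone, DESeq2 1.42.0, limma voom 3.58.1, no filter, a replicate block, a GC offset (loess span 0.5) and each library left out. Coordinates are from GENCODE on GRCm38, promoters from RefSeq on GRCm38.p6.

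The 8 genes and all lists were chosen with earlier results of these data known. From each further list, genes with an unadjusted p under 0.05, or otherwise the highest and lowest log2 fold change, are named, and 1 gene of low counts that this rule selects is given by its values without its name.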

Additional observations from a re-analysis of the deposited data

How the results depend on the processing

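Of 96 tested values of the 8 genes under the alternatives, 83 kept their direction and side of the threshold, 12 reversed and 1 was newly past the threshold. Of 16 values by TPM, which carry no test, 8 moved by less than the spread between libraries, 5 reversed and 3 moved by more. Hmgcs1 was at -0.0052 with library size alone and -0.00087 by TPM with a pseudocount of 1, and ran from -0.36 to 0.71 over the libraries left out. Idi1 ran from -0.26 to 0.99. Fdft1, at 0.0074, was at -0.0038 with RLE factors and with DESeq2, -0.083 with library size alone, -0.0023 without a filter, -0.084 with the GC offset, -0.078 with the offset and a replicate block, -0.16 by TPM with either pseudocount, and ran from -0.15 to 0.16 over the libraries left out. By TPM Lss was at -0.020 and -0.021 with pseudocounts of 1 and 0.1, Sqle at 0.16 with either and Fdps at 0.69 with a pseudocount of 1. The median of all genes tested was -0.13 on the TPM scale (pseudocount 0.1), and 7 of the 8 genes lay above it. Srebf2 ran from 0.48 to 1.38 over the libraries left out, so the count past the threshold ran from 0 to 1. The count above 0 ran from 5 to 8 over the libraries left out and was 5 by TPM with a pseudocount of 1, the count of non-overlapping genes was 2 by TPM, and the median of the 8 ran from 0.15 to 0.60. Over the libraries left out, the medians of the other synthesis enzymes ran from -0.022 to 0.35, of the regulators from -0.024 to 0.31 and of the isoprenoid branches from -0.35 to 0.15. With library size alone the median of the regulators was -0.048. The median of the other synthesis enzymes was highest, at 0.47, with limma voom and with the block. With a library left out, the lone one of its genotype was assumed to vary like the other pair. The causes were not tested. With the replicate number as a block, Srebf2 was at 0.93 with an adjusted p of 0.329, no gene of the 8 changed its side of the threshold and 1 gene of all tested passed it. Replicate 1 minus replicate 2 correlated between genotypes across genes (r = 0.487), but the numbers name replicates and nothing in the labels pairs them. DESeq2 passed 50 genes and none of the 8. At 2 libraries a genotype, the intervals of all 8 genes were wide, and the low counts of Fdps and Idi1 limit them further.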

Other observations

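Outside the lists, the genes whose library pattern lay nearest to the mean of the 8 cholesterol genes were Bin3, Add3, Tpst1, Fbxw17 and Ubl5, among 9321 genes with a mean of at least 10 CPM. The measure was the Euclidean distance over the 4 libraries between log2 deviations from each gene's mean, which was 0.0496 for Bin3 and 0.0727 for Ubl5. The mean deviations of the 8 genes were 0.24 and 0.21 in αKO and -0.12 and -0.33 in WT osteocytes. With 4 libraries many genes lie near any pattern, and the nearness is a description.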
